A study of Homo sapiens with 6 samples.

Results

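Levels of 38 genes of the cornified envelope and the epidermal barrier were compared between vehicle and metformin in CAL27 cells, an established human line derived from a tongue squamous carcinoma. The 38 genes were taken by symbol from the 58243 gene identifiers in the deposited tables: the small proline-rich (SPRR) and late cornified envelope (LCE) families, other envelope precursors, the filaggrin-like proteins, transglutaminases, envelope plakins and barrier lipid enzymes. Cells grown in DMEM with fetal bovine serum received either PBS, the vehicle, or 30 mM metformin, a biguanide that lowers blood glucose, for 48 h, and 3 mRNA sequencing libraries were made per group. The comparison thus rests on a single tumour line, dose and time.

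The cornified envelope is a protein shell that replaces the plasma membrane of a keratinocyte as it becomes a dead surface cell. Plakins form the first scaffold under the membrane, transglutaminases crosslink precursors such as involucrin, loricrin and the SPRR and LCE proteins onto it, and ceramides are attached to its outer face. Most precursor genes lie together on chromosome 1 in the epidermal differentiation complex. Oral epithelium and its carcinomas are stratified squamous tissue, in which many of these genes are active in the upper layers.

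Levels are in FPKM, which scales fragments by transcript length and by library depth, so they are per length. They can be compared between genes only as far as the annotated length of each gene is complete. Replicates 1, 2 and 3 of a group are given in that order, and means are ± SD with n = 3. A log2 change is metformin minus PBS of log2(FPKM + 1), and the added 1 FPKM shrinks the change of genes at low levels. Adjusted p-values are from limma with Benjamini-Hochberg adjustment over the 13437 genes that averaged at least 1 FPKM, and 0.05 was the threshold. For genes averaging between 0.1 and 1 FPKM they come from the same fit with the minimum lowered to 0.1 FPKM (21467 genes), and this is said beside each such value. Whether each library had its own culture is not stated in the labels, so p-values here reflect only how far these libraries spread, which may be technical.

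Metformin-treated cells had higher levels of SPRR genes, of LCE3D and LCE3E, of the precursor genes CNFN and CSTA, of the transglutaminase gene TGM1 and of all 4 barrier lipid genes. The levels with metformin stayed low for most of them. Of the 38 genes, 7 were listed at 0 in every library and another 12 were above 0 somewhere but below 1 FPKM in every library, so 19 stayed below 1 FPKM throughout. The 7 at 0 were SPRR2F, LCE1B, LCE1C, LCE3C, LOR, CRNN and TGM3. The 12 were SPRR2B, SPRR3, SPRR4, LCE3A, IVL, SBSN, KPRP, FLG, FLG2, RPTN, TCHH and TGM5. A mean of at least 1 FPKM was reached by 7 genes with PBS and by 16 with metformin, and 6 genes were at 1 FPKM or more in all 6 libraries. All 37 genes of mitochondrial DNA were also listed at 0 in every library, so a 0 in these tables does not show that a gene was silent.

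In 21 of the 38 genes every metformin library was above every PBS library, and in 1, EVPL, every metformin library was below. In the other 9 genes above 0 anywhere, the groups overlapped. Among all 30462 genes above 0 in at least 1 library, 22.9% had all metformin libraries above and 16.7% all below. The limma fit tested 13 of the 38 genes. It called 11 higher and 1 lower, against 31.0% of all tested genes called higher and 25.2% called lower (56.2% in either direction). The same 11 lay wholly above PBS and the 1 wholly below, against 35.7% and 28.7% of the tested genes. The median log2 change of the 13 was 1.45, against 0.06 over all tested genes. A gene averaging below 1 FPKM with PBS could enter this test only through its metformin level. These counts therefore describe the genes that passed and are no support for a direction. With the minimum at 0.1 FPKM, 23 of the 38 were tested, 18 were called higher and 1 lower, where 23.4% of all 21467 tested genes were called higher and 17.2% lower (40.6% in either direction). There too, a gene averaging below 0.1 FPKM with PBS entered only through metformin. In bulk RNA, more cells expressing a gene and more RNA of it per cell cannot be told apart.

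**Figure D1:**
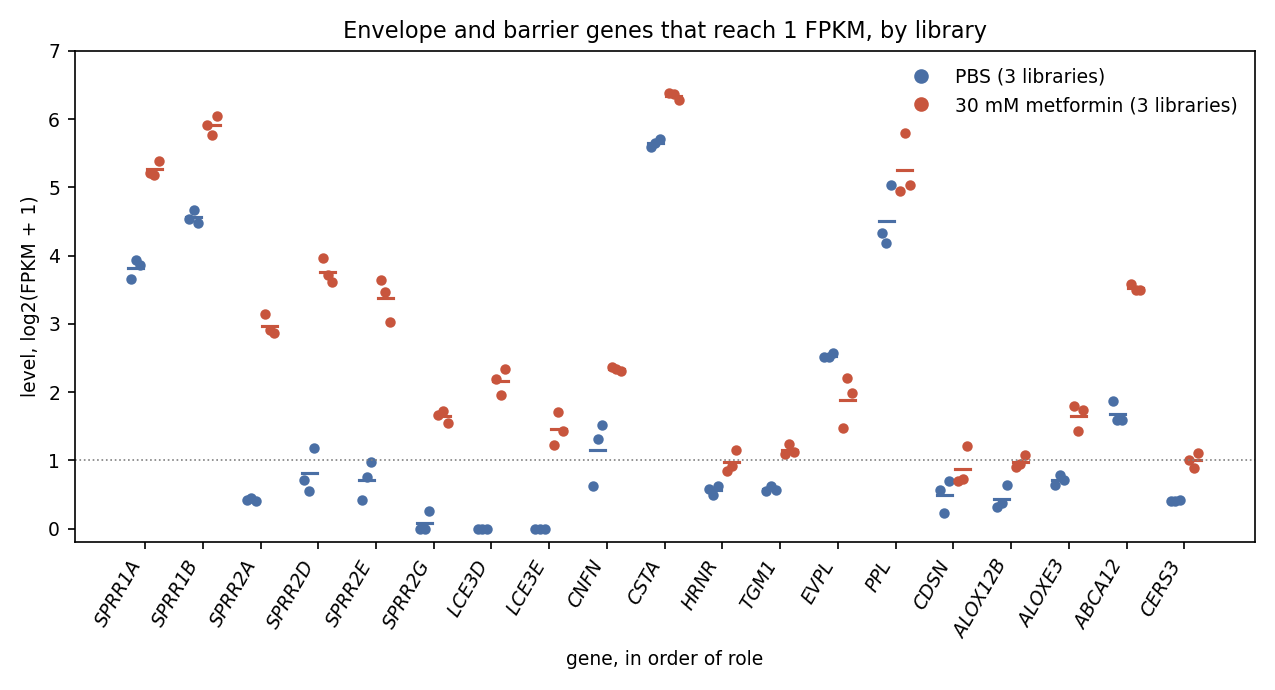
Level of the 19 genes that reached 1 FPKM in at least 1 library, on the vertical axis as log2(FPKM + 1), with 1 point per library, a line at each group's mean and the dotted line at 1 FPKM. SPRR1B and CSTA are the highest SPRR and precursor genes in both groups, LCE3D and LCE3E are at 0 in all PBS points, and the PPL points of the groups overlap.

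The SPRR proteins are short, proline-rich precursors that transglutaminases use as bridges between larger envelope proteins. The SPRR1 genes started from much higher levels than the SPRR2 genes. SPRR1A, SPRR1B, SPRR2A, SPRR2D, SPRR2E and SPRR2G rose, where 31.0% of all tested genes did. The 4 SPRR2 genes among them had PBS means below 1 FPKM and entered the test only through metformin, so their direction was fixed by the filter. SPRR1B had 22.3, 24.4 and 21.3 FPKM with PBS and 59.2, 53.3 and 65.3 with metformin. SPRR1A had 11.6, 14.3 and 13.5 with PBS and 36.2, 35.4 and 40.8 with metformin. In both genes the lowest metformin library was above the highest PBS library. SPRR1B (ENSG00000169469.8) rose 2.61-fold (log2 change 1.35, SE 0.09, limma adjusted p = 3.96e-05), and SPRR1A rose 2.86-fold (1.45, SE 0.09, limma adjusted p = 3.48e-05).

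Of the 6 SPRR2 genes, 4 rose from levels below or near 1 FPKM. SPRR2D had 0.637, 0.472 and 1.28 FPKM with PBS and 14.7, 12.2 and 11.2 with metformin, the highest SPRR2 level. SPRR2E had 0.334, 0.697 and 0.974 with PBS and 11.5, 10.1 and 7.13 with metformin. SPRR2A had 0.345, 0.361 and 0.320 with PBS and 7.83, 6.49 and 6.32 with metformin. The groups stood far apart in all 3 genes, and metformin replicate 1 was the highest library in each. The log2 changes were 2.95 (SE 0.18, limma adjusted p = 3.00e-05) for SPRR2D, 2.66 (SE 0.20, limma adjusted p = 7.51e-05) for SPRR2E and 2.55 (SE 0.10, limma adjusted p = 5.70e-06) for SPRR2A. SPRR2G was listed at 0, 0 and 0.200 with PBS and at 2.16, 2.30 and 1.93 with metformin (log2 change 1.56, SE 0.13, limma adjusted p = 9.26e-05).

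Few fragments stand behind the PBS values. With the depth estimated from the steps between low values and GENCODE exon lengths, SPRR2A had about 6.0 fragments in the 3 PBS libraries together and 121.8 in the 3 metformin libraries. The ratio per depth was 20.2, with an exact 95% interval of 9.03 to 56.2. For SPRR2D it was 15.9 (10.2 to 26.0), and for SPRR2E 14.5 (8.09 to 28.6). SPRR2G had about 1.0 fragment with PBS and 30.2 with metformin, a ratio of 29.8 with an interval of 4.96 to 1220. SPRR1B, with 349.2 fragments with PBS and 920.5 with metformin, had a ratio of 2.62 (2.31 to 2.97). These intervals rest on estimated fragments and cover counting error only.

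The SPRR2 genes are close copies, which limits how surely a fragment is given to one of them. Their coding sequences from GENCODE 29 (GRCh38, chromosome 1, minus strand) are shown with capitals where a base differs from SPRR2A in the alignment. They are chr1:153056517-153056735 for SPRR2A, chr1:153070621-153070839 for SPRR2B, chr1:153040128-153040346 for SPRR2D, chr1:153093533-153093751 for SPRR2E and chr1:153112515-153112733 for SPRR2F.
SPRR2A: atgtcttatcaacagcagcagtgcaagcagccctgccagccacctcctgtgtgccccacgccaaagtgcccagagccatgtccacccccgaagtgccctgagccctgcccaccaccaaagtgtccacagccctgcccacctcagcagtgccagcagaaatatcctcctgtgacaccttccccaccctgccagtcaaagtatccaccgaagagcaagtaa
SPRR2B: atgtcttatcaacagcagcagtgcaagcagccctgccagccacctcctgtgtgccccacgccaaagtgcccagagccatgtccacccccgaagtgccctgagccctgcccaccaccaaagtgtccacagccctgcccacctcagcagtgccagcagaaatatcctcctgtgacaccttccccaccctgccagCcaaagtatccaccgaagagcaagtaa
SPRR2D: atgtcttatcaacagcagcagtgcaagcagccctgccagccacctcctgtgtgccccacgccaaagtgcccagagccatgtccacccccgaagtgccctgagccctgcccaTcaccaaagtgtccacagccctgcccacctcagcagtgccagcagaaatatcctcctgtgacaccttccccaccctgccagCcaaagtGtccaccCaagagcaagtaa
SPRR2E: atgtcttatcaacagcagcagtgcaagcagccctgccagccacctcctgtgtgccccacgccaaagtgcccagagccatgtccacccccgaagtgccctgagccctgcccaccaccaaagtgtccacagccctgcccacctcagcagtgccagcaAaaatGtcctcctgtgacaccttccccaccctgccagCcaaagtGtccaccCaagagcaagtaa
SPRR2F: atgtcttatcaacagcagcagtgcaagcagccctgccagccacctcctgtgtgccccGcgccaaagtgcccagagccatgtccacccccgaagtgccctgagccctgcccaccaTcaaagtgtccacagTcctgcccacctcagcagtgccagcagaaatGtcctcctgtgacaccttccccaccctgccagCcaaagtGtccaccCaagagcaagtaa
Each is 219 bases long. SPRR2A differs from SPRR2B at 1 base, from SPRR2D at 4, from SPRR2E at 5 and from SPRR2F at 7, whereas SPRR2G differs from SPRR2A in 32 of 222 aligned columns (85.6% identity). Over whole transcripts the copies diverge more. Of the 150-base windows of SPRR2A, 10.5% occur exactly in SPRR2B or SPRR2E, of SPRR2B 9.4% and of SPRR2E 3.76%, and none of the windows of SPRR2D, SPRR2F or SPRR2G occur in another gene's transcripts. How the authors treated fragments that fit several genes is not given in the sources used here, so the split among SPRR2A, SPRR2B and SPRR2E is uncertain. Only windows of 150 bases were searched, and the read length is not stated here. The coding sequences of SPRR2D, SPRR2F and SPRR2G share shorter identical stretches with SPRR2A. Shorter reads could therefore fit these genes too, so their listed levels are not free of this uncertainty.

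SPRR2B, 1 base from SPRR2A in its coding sequence, was listed at 0 in the 3 PBS libraries and at 0.160, 0.0292 and 0 in the metformin libraries, and SPRR2F was listed at 0 in all 6 libraries. SPRR3, an SPRR gene of oral and oesophageal epithelium, was 0 in all PBS libraries, and the metformin libraries had 0.448, 0.806 and 0.631. SPRR4 was likewise at 0 with PBS and at 0.343, 0.323 and 0.239 with metformin. With the minimum at 0.1 FPKM, the log2 changes were 0.70 for SPRR3 (limma adjusted p = 0.00222) and 0.38 for SPRR4 (limma adjusted p = 0.00831). Both entered this test only through metformin, so they could only be called higher.

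The makeup of SPRR transcripts also differed between the groups. Summed over the 10 genes, SPRR levels were 35.2, 40.2 and 37.5 FPKM with PBS and 133, 121 and 133 with metformin. The 6 SPRR2 genes together held 3.74%, 3.81% and 7.38% of that sum with PBS and 27.4%, 25.7% and 19.9% with metformin. SPRR1A and SPRR1B held 92.6% to 96.3% with PBS and 72.0% to 79.4% with metformin, so they remained the main SPRR transcripts in every library.

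**Figure D2:**
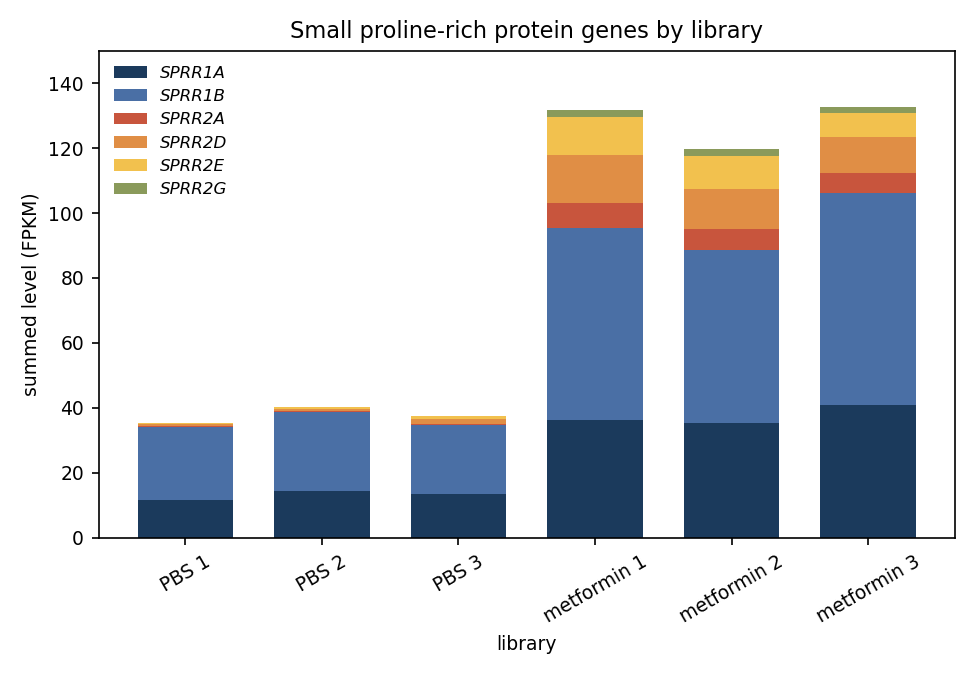
Stacked levels in FPKM of the 6 SPRR genes that reached 1 FPKM, 1 bar per library. SPRR1A and SPRR1B fill nearly all of the PBS bars, and the SPRR2 genes add a larger part to the metformin bars than to the PBS bars.

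The LCE proteins are small cysteine-rich and glycine-rich precursors added late to the envelope, and the LCE3 group is known from wounded and psoriatic skin. LCE3D (ENSG00000163202.4) had no signal in any PBS library and 3.60, 2.90 and 4.05 FPKM with metformin, about 15.1 to 21.3 fragments per library (log2 change 2.17, SE 0.12, limma adjusted p = 2.42e-05). LCE3E was likewise at 0 in all PBS libraries and had 1.34, 2.27 and 1.69 FPKM with metformin, about 6.5 to 11.8 fragments. With the minimum at 0.1 FPKM its log2 change was 1.45 (SE 0.14, limma adjusted p = 0.000305). LCE3D and LCE3E entered these tests only through metformin, so they could only be called higher. LCE3A had 0.366 FPKM in metformin replicate 3, about 0.9 of a fragment, and 0 elsewhere, and LCE1B, LCE1C and LCE3C were listed at 0 throughout. Counting all 38 genes, 5 (SPRR3, SPRR4, LCE3D, LCE3E and KPRP) were at 0 in every PBS library and above 0 in every metformin library, a pattern seen in 1.4% of all genes above 0 in at least 1 library.

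Among the other precursors, the highest level was that of CSTA, which encodes cystatin A, a protease inhibitor built into the envelope. CSTA (ENSG00000121552.3) had 47.0, 49.4 and 51.5 FPKM with PBS and 82.5, 81.6 and 76.3 with metformin, and rose 1.63-fold (log2 change 0.69, SE 0.06, limma adjusted p = 9.12e-05). CNFN, cornifelin, had 0.550, 1.49 and 1.88 with PBS and 4.16, 4.07 and 3.97 with metformin, 3.11-fold higher (log2 change 1.18, SE 0.22, limma adjusted p = 0.00382). PBS replicate 1 was well below the other PBS libraries in CNFN, while the metformin libraries were close together. The classical precursors of the epidermis stayed low. IVL, involucrin, had 0.313, 0.382 and 0.184 with PBS and 0.764, 0.437 and 0.996 with metformin, without overlap of the groups, but its log2 change of 0.41 missed the threshold with the minimum at 0.1 FPKM (SE 0.14, limma adjusted p = 0.0591). LOR, loricrin, was listed at 0 in all libraries. SBSN, suprabasin, was between 0 and 0.258 with PBS and between 0.235 and 0.254 with metformin (limma adjusted p = 0.311 with the minimum at 0.1 FPKM). KPRP, a keratinocyte proline-rich protein, was at 0 with PBS and at 0.0469 to 0.101 with metformin, about 4.0 fragments in all.

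Of the 6 genes of the filaggrin-like family, large proteins with an S100-type domain and long repeats that bind keratin filaments, HRNR alone reached 1 FPKM. HRNR, hornerin, had 0.503, 0.404 and 0.543 FPKM with PBS and 0.806, 0.889 and 1.22 with metformin (log2 change 0.41, SE 0.11, limma adjusted p = 0.0268 with the minimum at 0.1 FPKM). FLG, filaggrin, was at 0.0576, 0 and 0.00890 with PBS and at 0.109, 0.125 and 0.209 with metformin, without overlap of the groups. It shares 704 exon bases with the opposite-strand gene FLG-AS1, which had means of 0.0211 with PBS and 0.0494 with metformin. FLG2, RPTN and TCHH were at or below 0.0640 FPKM in every library, and CRNN, cornulin, was at 0.

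Transglutaminases make the crosslinks of the envelope, with TGM1 as the membrane-bound enzyme of keratinocytes. TGM1 (ENSG00000092295.11) had 0.460, 0.551 and 0.483 FPKM with PBS and 1.12, 1.36 and 1.18 with metformin, 2.45-fold higher without overlap (log2 change 0.57, SE 0.09, limma adjusted p = 0.00302 with the minimum at 0.1 FPKM). TGM3 was listed at 0 and TGM5 at no more than 0.115 in any library. TGM2, the widely expressed transglutaminase from the list of other pathway genes, had 7.65, 8.05 and 7.14 with PBS and 4.40, 3.26 and 4.76 with metformin (log2 change -0.76, SE 0.12, limma adjusted p = 0.00203). TGM2 shares 4.9% of its exon bases with RPRD1B on the opposite strand. On the same list, TGM4 went the other way, from a mean of 0.121 to 0.382 FPKM without overlap of the groups. Its log2 change was 0.30 (SE 0.09, limma adjusted p = 0.0310 with the minimum at 0.1 FPKM). TGM6 and TGM7 had means of 0 in both groups.

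The envelope plakins link the envelope to desmosomes and keratins. EVPL, envoplakin, had 4.70, 4.69 and 4.98 FPKM with PBS and 1.78, 3.61 and 2.97 with metformin, lower by 1.72-fold as a ratio of means (log2 change -0.64, SE 0.18, limma adjusted p = 0.0207). This call was lost without any single PBS library (limma adjusted p = 0.0507, 0.0515 and 0.0577 without replicates 1, 2 and 3). PPL, periplakin, its partner, had 19.05, 17.1 and 31.7 with PBS and 29.8, 54.8 and 31.7 with metformin, so PBS replicate 3 lay within the metformin range. PPL did not pass (log2 change 0.75, SE 0.30, limma adjusted p = 0.0687), and it did without PBS replicate 3 (log2 change 1.01, limma adjusted p = 0.0225). CDSN, corneodesmosin of the modified desmosomes between surface cells, had 0.476, 0.173 and 0.622 with PBS and 0.617, 0.657 and 1.31 with metformin. It overlapped between the groups and did not pass (limma adjusted p = 0.154 with the minimum at 0.1 FPKM). On the opposite strand, PSORS1C1 covers 93.8% of CDSN's exon bases and went from a mean of 0.238 to 0.676 FPKM. Without strand in the counting, which is not stated, fragments of CDSN and PSORS1C1 cannot be told apart.

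All 4 barrier lipid genes had every metformin library above every PBS library, against 22.9% of all genes above 0 in at least 1 library. ABCA12, the transporter that loads lipids into lamellar granules, had 2.67, 2.02 and 2.01 FPKM with PBS and 11.0, 10.2 and 10.3 with metformin, the only 1 of the 4 above 3 FPKM. ABCA12 (ENSG00000144452.14) rose 4.72-fold (log2 change 1.84, SE 0.10, limma adjusted p = 1.76e-05). ALOXE3 and ALOX12B encode lipoxygenases that act in sequence on linoleate-containing ceramides. ALOXE3 had 0.551, 0.733 and 0.635 with PBS and 2.48, 1.70 and 2.35 with metformin (log2 change 0.95, SE 0.13, limma adjusted p = 0.000969). Its PBS mean of 0.640 FPKM was below 1, so it entered the test only through metformin and its direction was fixed. ALOX12B had 0.247, 0.294 and 0.553 with PBS and 0.877, 0.922 and 1.12 with metformin (0.54, SE 0.12, limma adjusted p = 0.0114 with the minimum at 0.1 FPKM). It shares 26.8% of its exon bases with the opposite-strand gene AC129492.1, whose mean went from 0.327 to 0.684. CERS3, the ceramide synthase of very long chains, had 0.324, 0.323 and 0.339 with PBS and 1.02, 0.858 and 1.16 with metformin (0.60, SE 0.09, limma adjusted p = 0.00283 with the minimum at 0.1 FPKM).

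**Figure D3:**
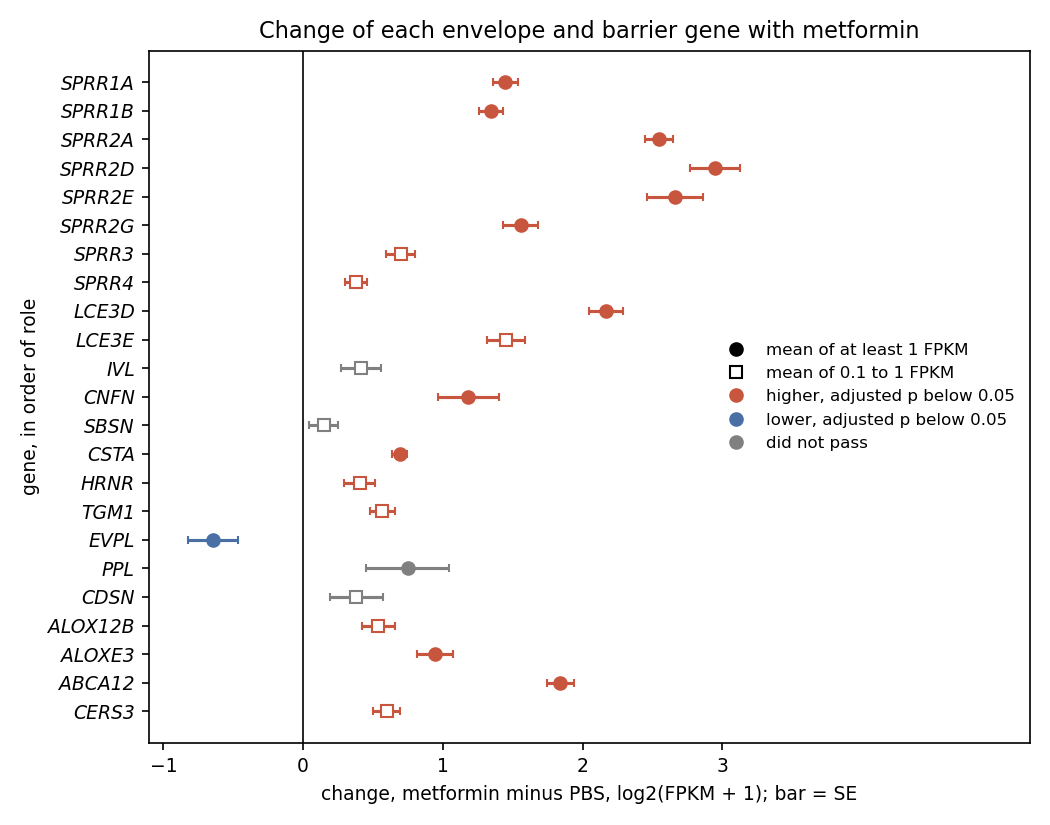
Log2 change with its SE for the 23 genes that averaged at least 0.1 FPKM, ordered by role from SPRR genes at the top to barrier lipid genes at the bottom. Filled circles averaged at least 1 FPKM and open squares between 0.1 and 1. SPRR2D, SPRR2E and SPRR2A lie farthest to the right, followed by LCE3D and ABCA12, and EVPL is the gene left of 0.

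Promoter sequences were compared within the SPRR2 and LCE3 genes, because close copies there differed in whether they were detected. RefSeq (GRCh38.p14) held a promoter for 31 of the 38 genes, not for SPRR2D, SPRR2E, LCE1B, CSTA, TGM1, EVPL and PPL. The 120 bases before the start of 4 SPRR2 genes are shown 5′ to 3′, with the TATA box (TATAAA) and the octamer (ATGCAAAT, here read on the other strand as ATTTGCAT) in capitals. They are chr1:153057513-153057632, chr1:153071612-153071731, chr1:153113517-153113636 and chr1:153150891-153151010, all on the minus strand.
SPRR2A: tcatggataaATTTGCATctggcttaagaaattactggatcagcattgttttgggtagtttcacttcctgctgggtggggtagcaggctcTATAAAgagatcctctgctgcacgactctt
SPRR2B: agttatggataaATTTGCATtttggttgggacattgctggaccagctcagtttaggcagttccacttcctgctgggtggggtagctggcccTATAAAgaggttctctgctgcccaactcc
SPRR2F: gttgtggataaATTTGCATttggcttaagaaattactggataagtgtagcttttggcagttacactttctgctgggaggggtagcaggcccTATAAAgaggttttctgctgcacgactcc
SPRR2G: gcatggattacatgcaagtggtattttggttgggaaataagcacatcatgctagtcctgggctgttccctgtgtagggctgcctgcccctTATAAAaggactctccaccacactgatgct
SPRR2A, which rose, and SPRR2F, which was listed at 0 throughout, were 83.5% identical here and SPRR2A and SPRR2B 78.7%, while SPRR2G, which rose, was 53.9% identical to SPRR2A. All 4 held TATAAA, and SPRR2A, SPRR2B and SPRR2F held the octamer.

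For LCE3 the same window is shown for LCE3D (chr1:152580517-152580636, minus strand) and LCE3E (chr1:152566781-152566900, minus strand), detected with metformin, and for LCE3C (chr1:152600114-152600233, plus strand), listed at 0. None of the searched motifs occurred in it.
LCE3D: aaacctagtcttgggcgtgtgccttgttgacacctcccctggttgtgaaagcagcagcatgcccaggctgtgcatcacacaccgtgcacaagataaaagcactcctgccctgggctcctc
LCE3E: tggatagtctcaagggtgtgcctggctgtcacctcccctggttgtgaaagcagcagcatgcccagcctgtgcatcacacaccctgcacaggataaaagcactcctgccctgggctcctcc
LCE3C: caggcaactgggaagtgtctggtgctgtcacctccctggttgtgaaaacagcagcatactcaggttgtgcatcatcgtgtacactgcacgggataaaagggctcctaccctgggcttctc
LCE3D and LCE3E were 86.8% identical in this window, and LCE3C was 72.4% identical to LCE3D and 73.4% to LCE3E. LCE3A, above 0 in metformin replicate 3 only, was 43.8% identical to LCE3D, 45.0% to LCE3C and 46.3% to LCE3E.

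Over the 250 bases before the start, the AP-1 site TGAGTCA on either strand occurred in 8 of the 31 genes, against 4.2% of all 35116 promoter entries. These were IVL, LOR, SBSN, SPRR1A, SPRR1B, SPRR2A, SPRR2F and SPRR3, so the letters occur in genes that rose and in genes listed at 0. TATAAA on the given strand occurred in 15 of 31 (6.8% of all entries). The octamer occurred in 3, all SPRR2 genes (1.63% of all entries), and TGATGNAA, letters bound by C/EBP and ATF dimers, in 4 (FLG2, LOR, SPRR1B and SPRR4, 3.14% of all entries). The octamer and TGATGNAA share letters and can overlap. Each of the 31 genes was counted once, whereas the shares are over promoter entries, of which a gene can have several. Close copies such as SPRR2A and SPRR2F were counted separately. A match describes letters only and shows no binding.

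The epidermal differentiation complex, taken from S100A10 to S100A1 (GRCh38 chromosome 1, 151982915 to 153632039), holds 63 protein-coding genes in GENCODE 29, and 25 of the 38 genes lie in it. Of these 25, 7 averaged at least 1 FPKM and were called higher by limma, but 5 of them (SPRR2A, SPRR2D, SPRR2E, SPRR2G and LCE3D) had PBS means below 1 FPKM and entered the test only through metformin. Of the 38 other genes of the region, 14 were tested, and 2 were called higher and 8 lower, where 31.0% of all tested genes were called higher and 25.2% lower. The difference between these groups of genes was not tested. The 8 lower were PGLYRP4 and 7 S100 genes at the far end. These genes are named here after their values were seen. PGLYRP4 averaged 0.114 FPKM with metformin and entered the test only through PBS, so it could only be called lower. S100A9, a calcium-binding alarmin of activated keratinocytes, fell from a mean of 459 to 80.5 FPKM (log2 change -2.49, limma adjusted p = 2.02e-06), and S100A7 from 46.2 to 7.79 (-2.45, limma adjusted p = 0.000147). CRCT1, which lies next to LCE3E, went from 0 in the mean of the PBS libraries to 3.21 (2.05, limma adjusted p = 9.68e-05). It entered the test only through metformin and could only be called higher. S100A11 went from 253 to 307 (0.28, limma adjusted p = 0.00754). In genome order, the SPRR genes that rose and the S100 genes that fell were separated by LELP1, PRR9 and LOR, all below 1 FPKM in both groups' means, and by PGLYRP3 and PGLYRP4.

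**Figure D4:**
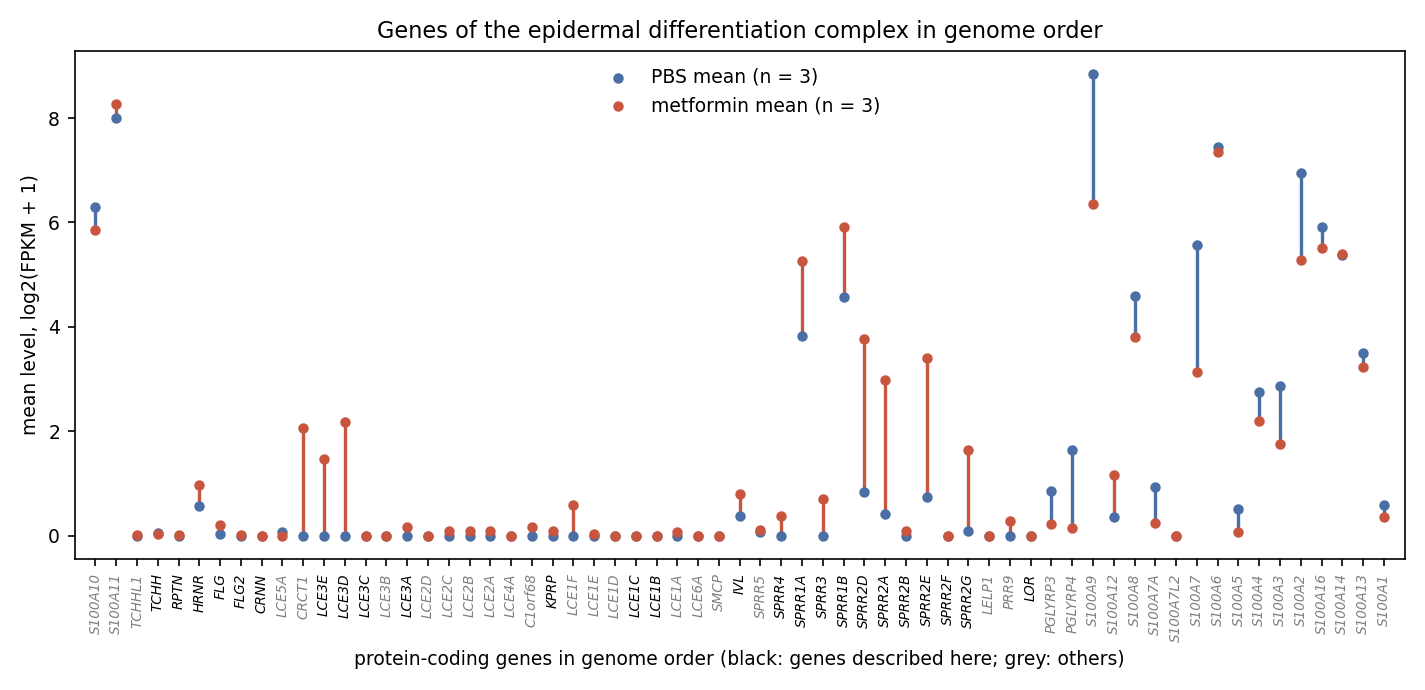
Mean level per group as log2(FPKM + 1) for the 63 protein-coding genes of the complex in genome order, joined by a red line where metformin is higher and a blue line where it is lower. Lines at the SPRR genes, LCE3D and LCE3E are red, and those at S100A9, S100A8, S100A7 and S100A2 are blue.

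Other genes of the pathway were read from 4 lists of 93 genes in all. Of the 50 tested, 22 passed upward and 14 downward (median log2 change 0.17), where 31.0% of all tested genes were called higher and 25.2% lower (median 0.06). None of the 17 other structural genes of the complex averaged 1 FPKM, and 7 were listed at 0 in every library.

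Of the envelope substrates, crosslinking and processing genes, 6 were called up and 7 down of 14 tested (median log2 change 0.01), against 31.0% and 25.2% of all tested genes. SCEL, sciellin, an envelope precursor, rose 9.22-fold from 1.28 ± 0.109 to 11.8 ± 0.717 FPKM, and ANXA1, annexin A1, another envelope substrate, rose 2.71-fold from 121 ± 2.30 to 327 ± 10.2. KLK7, a protease that degrades corneodesmosomes, went from 0.740 ± 0.343 to 5.60 ± 0.414. With a PBS mean below 1 FPKM, KLK7 entered the test only through metformin, so its direction was fixed by the filter. PADI3, which converts arginines of filaggrin and trichohyalin to citrulline, fell 7.92-fold from 30.8 ± 1.44 to 3.89 ± 0.0925. PI3, elafin, a protease inhibitor crosslinked into the envelope, fell 2.77-fold from 43.7 ± 6.81 to 15.8 ± 0.571. CALML3, a calmodulin-like protein, fell 4.82-fold from 17.1 ± 2.93 to 3.54 ± 0.654, and it shares 21.5% of its exon bases with AL732437.1, which went from 39.7 to 10.0 FPKM in the same direction.

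Genes of barrier lipid synthesis and transport gave 4 called up and 4 down of 15 tested (median log2 change 0.10), near the 31.0% and 25.2% of all tested genes. ELOVL4, which makes very long fatty acids, rose 2.65-fold to 4.11 ± 0.323, ABHD5, a lipase coactivator, 2.16-fold to 8.16 ± 0.616, and UGCG, glucosylceramide synthase, 1.52-fold to 46.8 ± 0.116. STS, steroid sulfatase, fell 1.71-fold from 9.19 ± 0.931 and SPTLC2, a subunit of the enzyme that starts sphingolipid synthesis, 1.30-fold from 9.26 ± 0.808.

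Transcription factors of keratinocyte differentiation gave 12 called up and 3 down of 21 tested (median log2 change 0.36), against 31.0% and 25.2% of all tested genes. GRHL3, a factor of terminal differentiation, went 5.46-fold from 0.469 ± 0.182 to 2.56 ± 0.172. Its PBS mean was below 1 FPKM, so it entered the test only through metformin and could only be called higher. The AP-1 subunit gene FOSL1 rose 2.14-fold from 78.4 ± 5.22 to 167 ± 4.90. KLF4, a factor of barrier formation, had 7.23, 6.89 and 6.31 with PBS and 23.7, 8.52 and 21.8 with metformin. Its call (log2 change 1.17, SE 0.35, limma adjusted p = 0.0257) was lost without any 1 PBS library or without metformin replicate 1 or 3 (log2 change 0.92 to 1.21, limma adjusted p = 0.0564 to 0.0799) and with no level filter (limma adjusted p = 0.068). Without metformin replicate 2, the lowest metformin library, the log2 change was 1.61 (limma adjusted p = 0.000116). The receptor genes NOTCH3 and NOTCH1 fell 2.41-fold and 1.26-fold, and TP63, the factor of basal identity, 1.34-fold from 17.5 ± 1.23 to 13.1 ± 0.426. The NOTCH1 call was lost without PBS replicate 1 or metformin replicate 1 or 2 (limma adjusted p = 0.0566 to 0.0671).

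**Figure D5:**
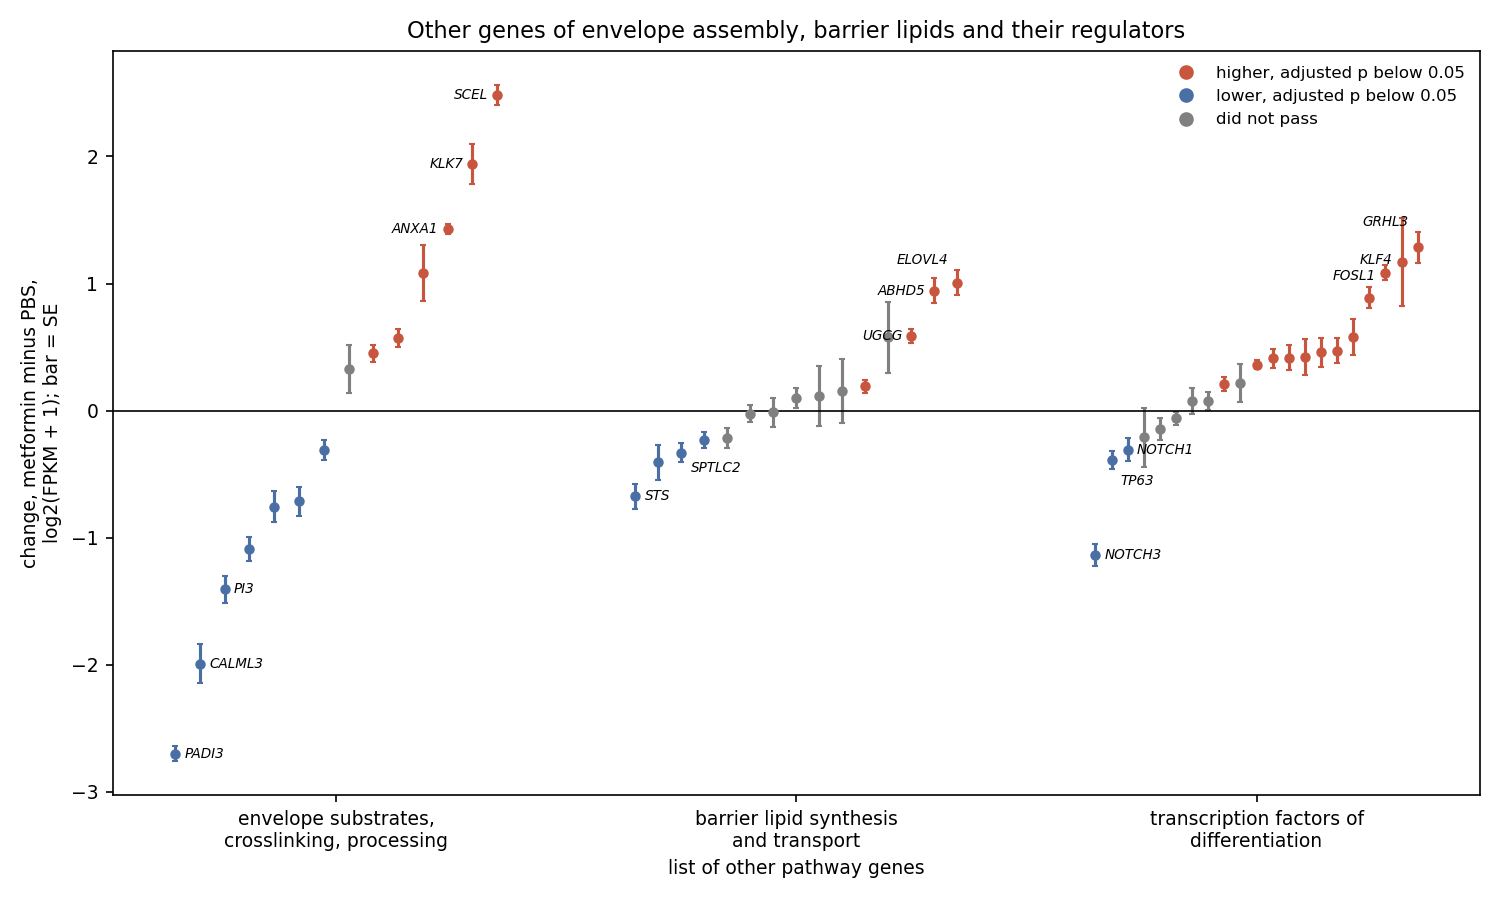
Log2 change with its SE for the tested genes of 3 lists of other pathway genes, ordered by change within each list. Envelope substrates and processing genes spread from PADI3 at -2.70 to SCEL at 2.49, and the other lists stay closer to 0.

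Markers of the squamous line were present in the libraries. All 10 squamous line markers averaged above 1 FPKM, with sums of 1673.9 to 1773.9 with PBS and 1188.5 to 1230.8 with metformin. Of the 10, 3 were called higher and 6 lower, against 31.0% and 25.2% of all tested genes. Among the lower, KRT5 went from a mean of 355 to 52.4 FPKM and KRT14 from 246 to 12.9. Summed markers of fibroblasts were 1.54 to 2.34 FPKM with PBS and 2.49 to 2.74 with metformin, of melanocytes 0.427 to 0.548 and 0.414 to 0.495, of leukocytes 5.37 to 6.56 and 4.19 to 5.45, and of endothelium 5.93 to 6.87 and 2.01 to 2.32. Of the fibroblast, endothelial and melanocyte markers, only DCN, EMCN and TYR were listed at 0 in every library. Other markers of these types were not at 0 throughout. COL1A1 went from a mean of 1.36 to 2.38 FPKM and was called higher, CDH5 went from 6.17 to 2.03 and was called lower, and PMEL, which overlapped between the groups, had 0.483 and 0.333. Of the leukocyte markers, CD14 went from 3.71 to 0.942 and was called lower, and CD68 from 2.15 to 3.33 and was called higher. The part of these markers in the results was not tested. Estimated depth was 7850000 to 8850000 fragments with PBS and 7970000 to 8600000 with metformin, so neither group was deeper throughout.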

How the data were processed

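Messenger RNA of 6 CAL27 libraries, 3 with PBS and 3 with metformin, was sequenced. The authors deposited gene-level FPKM for each library, as the file headers name it. The build was GRCh38, per the submitters' processing notes. For the aligner, quantifier, strand use and annotation release, details were not given in the sources used here. Identifiers without version were named by GENCODE 29 (57980 of 58243), which found all 38 genes.

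Genes averaging at least 1 FPKM were fitted as log2(FPKM + 1) with limma 3.58.1 in R 4.3.3 (intensity trend, two-sided test, group as the only term), adjusted by Benjamini-Hochberg, and tested on simulated data. Pseudocount, level filter, scaling, trend, robust prior, a replicate block and each library left out were alternatives. Exon overlaps, 150-base windows and alignments used Python 3.11.15 and Biopython 1.88. FPKM give no depth directly, so fragments were estimated from the steps between low values, an approximation that also takes the union of GENCODE exons as the length.

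The 38 genes, the lists and the tests were chosen with earlier results of these data known. The text names all 38 genes, gives every library for those that reach 1 FPKM, and names up to 3 passing genes per direction of each pathway list, of which 1 is not reported here. Others are said to be named after their values were seen. TGM2, TGM4, TGM6 and TGM7, as transglutaminases outside the 38, were named so. The markers KRT5, KRT14, DCN, EMCN, TYR, COL1A1, CDH5, PMEL, CD14 and CD68 were also named so.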

Additional observations from a re-analysis of the deposited data

How the results depend on the processing

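The 11 genes called higher became 18 with genes averaging at least 0.1 FPKM, 19 with no level filter and 6 with at least 5 FPKM, since the filter decides which genes are tested. The 1 called lower, EVPL, became 0 with no level filter, where EVPL had a limma adjusted p of 0.054, and 0 with at least 5 FPKM, where EVPL was not tested. Without 1 library, 10 to 13 were called higher and 0 to 1 lower, 0 without any 1 of the PBS libraries. Both counts stayed at 11 and 1 with the other pseudocounts, scalings and limma settings. Of the 11, SPRR2A, SPRR2D, SPRR2E, SPRR2G, LCE3D and ALOXE3 entered only through metformin in these settings too. Their direction was therefore fixed, and the steady count is no support for it. Over all genes, 4169 were called higher and 2401 with at least 5 FPKM. Higher and lower calls were 4169 and 3380 as deposited, 3595 and 3867 with median-of-ratios scaling, and 3645 and 3811 with quantile normalization. The 19 genes below 1 FPKM in every library stayed 19 with median-of-ratios scaling, and 17 were below 0.5 FPKM and 24 below 2 FPKM. Without 1 library, 19 to 22 pathway genes were called higher and 11 to 15 lower, and all genes gave 3566 to 3873 higher and 3015 to 3095 lower. Of 468 alternative values for 30 named genes, none reversed, 13 calls were lost and 1 gained, in EVPL, PPL, KLF4 and NOTCH1. Among the 30, SPRR2A, SPRR2D, SPRR2E, SPRR2G, LCE3D, ALOXE3, KLK7 and GRHL3 had PBS means below 1 FPKM. They entered the main test only through metformin, so their direction was fixed by its filter. For them the absence of a reversal is no support. Same-numbered libraries of the groups did not deviate together (correlations -0.000355, 0.0304 and -0.0105). With a replicate block, 11 genes were called higher and 1 lower, as without it, and 3940 and 3199 over all genes. At the estimated depth of 7850000 to 8850000 fragments, a short gene below 1 FPKM rests on few fragments, such as SPRR4 with 1.5 to 2.0 per metformin library.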
